A study of Mus musculus with 8 samples.

Results

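Nup93, Syngr1, Lrrfip1, Araf, Ahnak and Aak1 are mouse genes for which an array carried several probes, and for which bright probes of 1 gene pointed in opposite directions when germinal tissue was compared with the cortical plate. The 6 genes were taken by symbol, through the RefSeq accession that the array gives each probe, and each probe was kept apart with its own accession. Together they have 17 of the 39429 gene probes, and they are 6 of the 13831 genes with a symbol and a tested probe. They were picked because their bright probes disagree, so the differences between the tissues given for their probes are a description and carry no test.

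RNA came from the neocortex of ICR mice, an outbred stock, at embryonic day 16. Tissue dissected by hand gave 4 samples of the ventricular zone with the subventricular zone (V/SVZ), layers that border the ventricle and hold dividing progenitors, and 4 samples of the cortical plate (CP), where young neurons settle. No genotype, treatment or transgene separates the tissues in the labels, and they do not state whether different animals gave the samples of a tissue, so the p-values reflect sample-to-sample spread that could be technical. Each sample was hybridised to its own 1-colour array, and the V/SVZ arrays shared slide 1 while the CP arrays shared slide 2, so slide and tissue cannot be told apart.

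A probe on such an array is designed to read the transcripts that contain its target stretch. A gene can make several transcripts from alternative starts, alternative exons or alternative ends, and neural tissue is known for extensive use of all of these. Probes of 1 gene may therefore follow different transcripts, and a single probe does not stand for the whole gene. Probe sequences were not available here. Which transcripts a probe reads, and whether it also reads other RNA, was not tested. In these bulk samples fewer cells of a type and less RNA per cell cannot be told apart.

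On a given array 58.4% to 62.9% of gene probes exceeded background clearly by the scanner's own call, and the 75th percentile ranged from 2113 to 2566 intensity units. Of 13 progenitor marker genes tested, all 13 were higher in V/SVZ, with Eomes, a factor of intermediate progenitors, at a log2 difference of 8.39, or 7.58 after normexp background correction. Of 11 cortical plate neuron markers, 10 were higher in CP, with the kinase subunit gene Camk2b at -7.35, and 1 (Rbfox3, -0.12) was not called. The authors' deposited value table of these arrays runs the opposite way under its own column names, and directions here follow the labels of the scanner files. Over all 23860 probes tested, 79.7% were called at a limma adjusted p below 0.05, with 35.2% (8410) towards V/SVZ and 44.4% (10599) towards CP. For 13831 genes with a symbol, each taken by its brightest tested probe, 82.1% were called, 38.6% towards V/SVZ and 43.5% towards CP. Of the calls among all probes, the V/SVZ share was 44.2%, and 58.7% when arrays were not scaled, which moved the median difference of all probes by 0.21 on the log2 scale.

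Of the 17 probes, 15 were tested, meaning that 1 tissue or both had all 4 arrays well above background, and 14 of these were well above background on all 8 arrays. The 14 divided evenly, with 7 on the V/SVZ side and 7 on the CP side. In all 15 tested probes the 4 arrays of one tissue lay above the 4 of the other, which held for 75.5% of all tested probes (33.8% towards V/SVZ and 41.7% towards CP) and which the choice of the genes favours. The differences of the 15 ranged in size from 1.04 to 3.31 on the log2 scale with a median of 1.89, while the standard deviation within a tissue ran from 0.037 to 0.49. Each of the 17 probes had 1 spot per array.

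**Figure D1:**
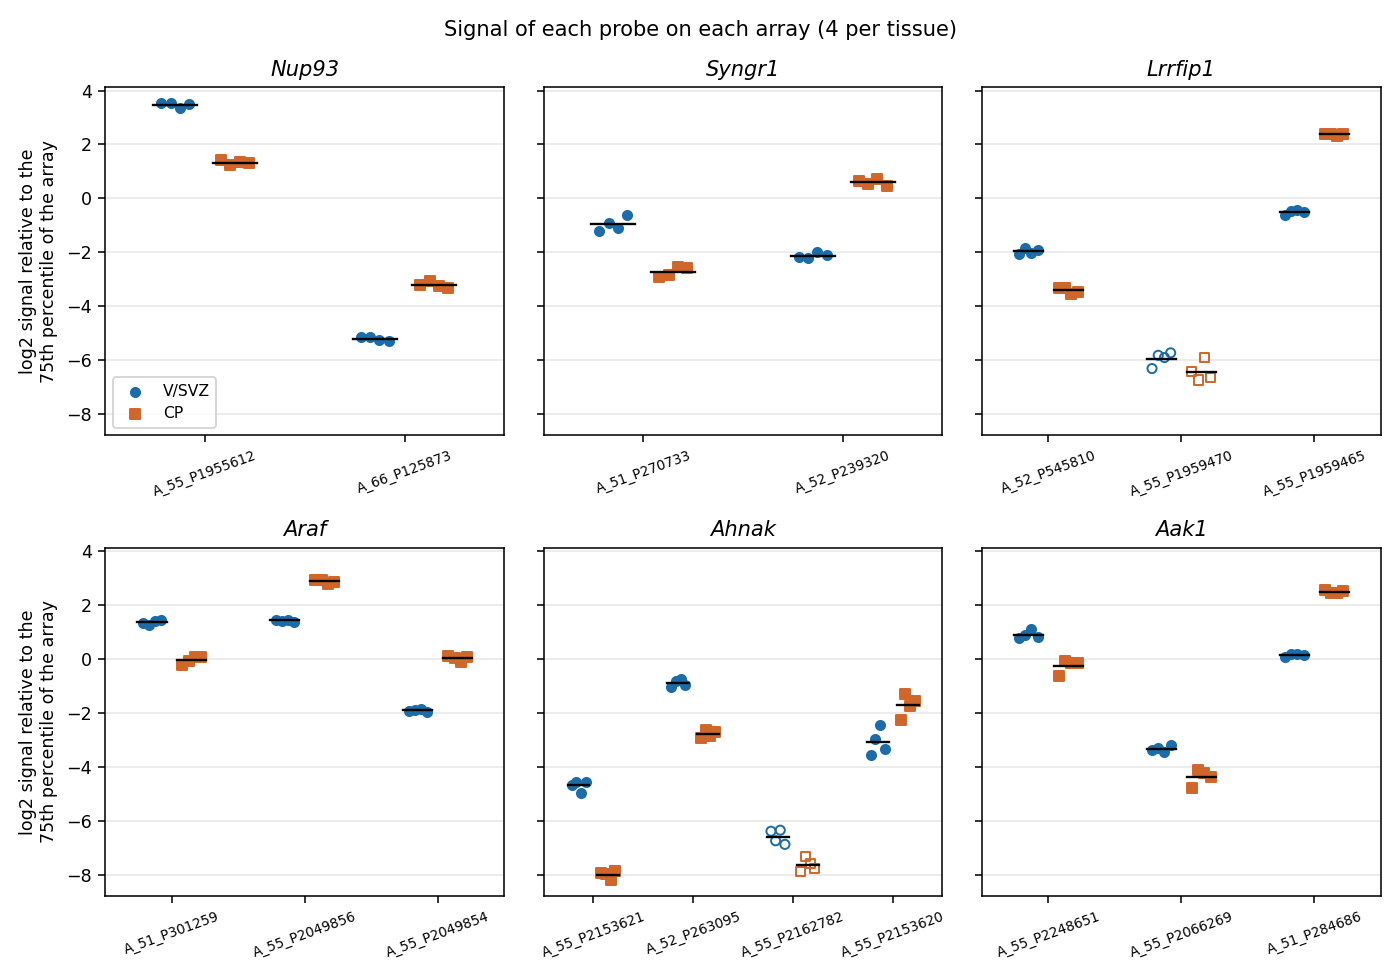
Signal of the 17 probes of the 6 genes on the 8 arrays, as log2 relative to the 75th percentile of the array (circles V/SVZ, squares CP, black lines the mean of 4 arrays). Filled symbols are the 15 tested probes and open symbols the 2 that were not tested. In each gene at least 1 tested probe lies higher in V/SVZ and at least 1 higher in CP.

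Opposition of this size was rare on the array. Of 3706 genes with several tested probes, 312 (8.42%) had probes called in opposite directions. Of 3248 genes with several probes well above background on all 8 arrays, 284 (8.74%) did, but only 8 (0.246%) had probes that differed by 2-fold or more each way. The 6 genes are among these 8, and the other two are the neurotrophin receptor gene Ntrk2 (2.78 and -4.07 on the log2 scale) and 4933409K07Rik (1.29 and -1.20). Ranked by the smaller of the opposed differences, Nup93 came 2nd, Syngr1 3rd, Lrrfip1 4th, Araf 5th, Ahnak 6th and Aak1 8th. These ranks rest on the values by which the genes were picked, so they are a description. Their order depends on background handling, since after normexp the smaller difference was -1.49 for Nup93 and 1.52 for Syngr1. It also depends on scaling. Without scaling the smaller difference was -1.79 for Nup93 and 1.98 for Syngr1, and -1.16 for Ahnak and 1.35 for Aak1. The gene just outside 2-fold was Macroh2a1, a histone variant gene, at 0.94 and -1.36. The count of 8 holds for the main scaling. Median scaling shifts every difference by 0.088 towards V/SVZ, which would take Macroh2a1 past 2-fold both ways. No scaling shifts them by 0.208, which would bring in Macroh2a1 and other genes and take 4933409K07Rik just under 2-fold. The distance between the extreme probes of a gene had a median of 0.21 on the log2 scale over the 3248 genes and a 90th percentile of 1.0, against 3.26 for Ahnak and 4.49 for Syngr1 at the ends of the range of the 6 genes.

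**Figure D2:**
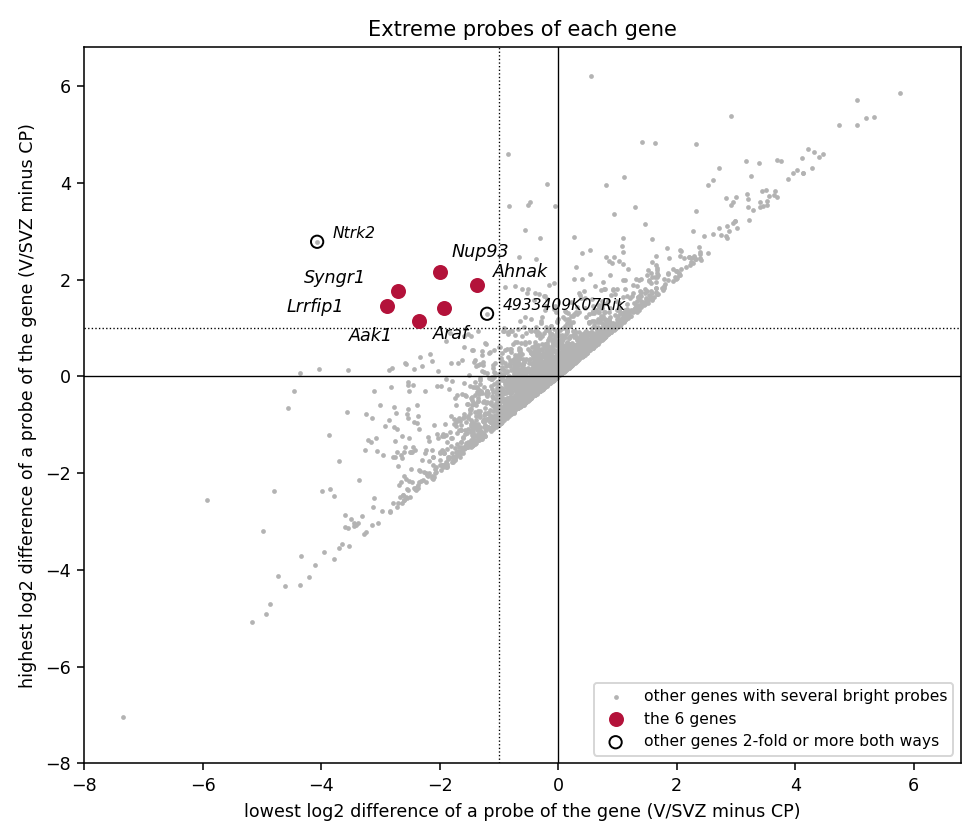
Highest against lowest log2 difference (V/SVZ minus CP) among the bright probes of each of 3248 genes. Dotted lines mark 2-fold in each direction. The 6 genes and the other two, Ntrk2 and 4933409K07Rik, occupy the upper left corner, while most genes lie near the diagonal, where all probes of a gene give the same value.

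The accession on the array separated the opposed probes in only some of the genes. In Nup93 and Aak1 the opposed bright probes carry 1 accession, and in Syngr1, Lrrfip1, Araf and Ahnak they carry several. Among all 2820 genes whose bright probes share 1 accession, 222 (7.87%) had probes called in opposite directions and 3 (0.106%) had probes 2-fold or more apart each way. Among the 428 whose bright probes carry several accessions, 62 (14.5%) and 5 (1.17%) did. These shares are descriptions, since the genes were chosen on the same differences.

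Nup93 encodes a structural protein of the inner ring of the nuclear pore, through which RNA and proteins pass between nucleus and cytoplasm. Both of its probes carry the accession NM_172410. Probe A_55_P1955612 read 27906, 29742, 26318 and 28061 intensity units on the V/SVZ arrays and 6050, 5090, 5515 and 5213 on the CP arrays. Probe A_66_P125873 read 68.9, 73.4, 67.2 and 63.6 on the V/SVZ arrays and 243, 256, 231 and 213 on the CP arrays. The tissues were thus well apart in both probes, with V/SVZ high in the first and CP high in the second. The second probe was far dimmer, with mean scaled log2 levels of -5.20 in V/SVZ and -3.21 in CP. Those of the first were 3.48 and 1.33. The second counts among the bright probes because it was well above background on every array. Its V/SVZ readings were nevertheless below those of the tested Ahnak probe described as dim further on. The first was 4.44-fold higher in V/SVZ (log2 difference 2.15 ± 0.054 SE, n = 4 per tissue) and the second 3.98-fold higher in CP (-1.99 ± 0.066 SE), or 2.81-fold after normexp background correction.

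RefSeq lists 5 transcripts of Nup93 and annotates 2 starts. The windows around both starts are shown, from 250 bases before to 50 after, because they differ in kind and the array accession does not say which start a probe's transcript uses. Capitals mark GC boxes (GGGCGG) and TATA boxes (TATAAA) on either strand, with adjoining or overlapping matches run together. Sequences and coordinates are those of RefSeq on build GRCm38.p6.
Nup93 start 1, chr8:94214314-94214613, strand +: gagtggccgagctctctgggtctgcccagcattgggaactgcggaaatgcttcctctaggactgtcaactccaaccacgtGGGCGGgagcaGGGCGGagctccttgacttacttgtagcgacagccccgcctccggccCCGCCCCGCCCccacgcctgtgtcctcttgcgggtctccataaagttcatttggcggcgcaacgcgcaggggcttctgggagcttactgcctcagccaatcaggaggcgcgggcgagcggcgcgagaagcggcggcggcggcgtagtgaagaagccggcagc
Nup93 start 2, chr8:94266597-94266896, strand +: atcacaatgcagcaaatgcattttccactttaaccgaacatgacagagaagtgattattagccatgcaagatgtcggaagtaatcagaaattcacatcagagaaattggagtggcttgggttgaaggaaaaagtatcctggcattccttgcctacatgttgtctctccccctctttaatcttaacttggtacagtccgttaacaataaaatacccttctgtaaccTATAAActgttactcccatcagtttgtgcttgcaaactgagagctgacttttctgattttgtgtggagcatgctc

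The first Nup93 window is 66.3% G and C, holds 28 CpG pairs and has 4 GC boxes and no TATA box. The second is 40.3% G and C, holds 3 CpG pairs and has 1 TATA box and no GC box. Of 32851 RefSeq windows of this length, 35.7% hold a GC box and 13.6% a TATA box, and the median window holds 7 CpG pairs. A match to these letters is a description and not a site of use. The gene Mir138-2, which encodes a microRNA, overlaps Nup93 in the annotation but has no tested probe.

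The rest of the nuclear pore list lay mostly on the side of the first Nup93 probe. Of 27 other pore genes tested, V/SVZ was the higher side for 21 and CP for 3, against 38.6% and 43.5% of all 13831 genes with a symbol, and the list median was 0.42 on the log2 scale against -0.05 over all those genes. The largest difference towards V/SVZ was that of Nup37, a member of the outer ring (3.34-fold, log2 difference 1.74 ± 0.057 SE, limma adjusted p = 2.95e-08). Towards CP it was that of Nup214, a nucleoporin of the cytoplasmic side (1.69-fold higher in CP, limma adjusted p = 0.000372). The Nup214 probe was the dimmest of the list, with mean log2 levels of -5.59 in V/SVZ and -4.84 in CP, and was 1.41-fold higher after normexp. The other 2 higher in CP were Seh1l (-0.29) and Rae1 (-0.19). With median scaling or none, Nup214 alone of these 3 was called, and Rae1 was at 0.019 without scaling. The inner ring partners of Nup93 were all higher in V/SVZ, with log2 differences of 0.77 for Nup188, 0.50 for Nup205, 0.47 for Nup155 and 0.34 for Nup35.

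Over the 8 arrays, the profile closest to that of A_55_P1955612 among 12127 other genes was that of Limd1, with a root mean square difference of 0.045 on the log2 scale after each probe was centred on its own mean, and next came Dut, at 0.050. For A_66_P125873 they were B3gnt9 (0.050) and Sez6 (0.065). Profiles over 2 tissues are set mainly by the tissue difference, so such a match is a description.

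Syngr1 encodes synaptogyrin, a membrane protein of synaptic vesicles. Probe A_51_P270733, for NM_009303, read 1060, 1382, 1202 and 1627 intensity units in V/SVZ and 302, 298, 375 and 351 in CP. Probe A_52_P239320, for NM_207708, read 534, 554, 640 and 586 in V/SVZ and 3515, 3104, 3599 and 2944 in CP. No array of one tissue reached the range of the other in either probe. The first probe was 3.42-fold higher in V/SVZ (1.77 ± 0.16 SE, n = 4 per tissue) and the second was 6.56-fold higher in CP (-2.71 ± 0.073 SE). The V/SVZ arrays were more spread in the first probe (SD 0.25) than in the second (SD 0.094). RefSeq lists 4 transcripts of the gene and 1 start.

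Among the paralogs of Syngr1, Syngr2, known from non-neuronal cells, was 2.03 higher in V/SVZ on the log2 scale, while Syngr3, a neuronal paralog, differed by -1.65 and Syngr4 by -0.71. Of 16 genes in the list of synaptogyrins and other vesicle proteins, 9 were higher in CP and 4 in V/SVZ, with a median of -0.96, beside 43.5% and 38.6% of all genes. Synpr, the vesicle protein synaptoporin, was 9.27-fold higher in V/SVZ (limma adjusted p = 7.66e-08, and 6.21-fold after normexp). Syt1, the calcium sensor of vesicle release, was 13.7-fold higher in CP (limma adjusted p = 3.28e-10). The CP-high Syngr1 probe had the direction of Syt1 and Syngr3, and the V/SVZ-high probe that of Syngr2 and Synpr. Closest in profile were Il17rc (0.091) and Parvg (0.092) to A_51_P270733, and Rgs7 (0.064) and Slc7a4 (0.068) to A_52_P239320.

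Lrrfip1 encodes a protein that binds Flii, an actin-regulating protein of the gelsolin family, and that can bind nucleic acids. Probe A_55_P1959465, for NM_008515, read 1574, 1843, 1885 and 1744 intensity units in V/SVZ and 11891, 11349, 10753 and 11090 in CP. Probe A_52_P545810, for NM_001111311, read 574, 727, 628 and 672 in V/SVZ and 226, 214, 188 and 193 in CP. Both probes kept the tissues apart, in opposite order. The first was 7.40-fold higher in CP (-2.89 ± 0.044 SE, n = 4 per tissue) and the second 2.74-fold higher in V/SVZ (1.46 ± 0.077 SE, and 2.25-fold after normexp). Another probe, A_55_P1959470, also for NM_001111311, was well above background on 1 of the 8 arrays and was not tested. It ran from 30.6 to 47.4 in V/SVZ and from 20.3 to 36.8 in CP, and the tissues overlapped.

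Lrrfip1 has the most transcripts of the 6 genes in RefSeq, 50, of which 46 are predicted, and it has 2 annotated starts. Their windows are shown for comparison with those of Nup93, with the same marking, source and build.
Lrrfip1 start 1, chr1:90998477-90998776, strand +: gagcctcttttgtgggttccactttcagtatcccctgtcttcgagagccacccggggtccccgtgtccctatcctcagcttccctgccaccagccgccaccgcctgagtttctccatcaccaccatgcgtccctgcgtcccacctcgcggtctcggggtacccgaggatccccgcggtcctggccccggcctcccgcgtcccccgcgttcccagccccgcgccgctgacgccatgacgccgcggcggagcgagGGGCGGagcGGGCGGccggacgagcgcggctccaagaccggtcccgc
Lrrfip1 start 2, chr1:91053194-91053493, strand +: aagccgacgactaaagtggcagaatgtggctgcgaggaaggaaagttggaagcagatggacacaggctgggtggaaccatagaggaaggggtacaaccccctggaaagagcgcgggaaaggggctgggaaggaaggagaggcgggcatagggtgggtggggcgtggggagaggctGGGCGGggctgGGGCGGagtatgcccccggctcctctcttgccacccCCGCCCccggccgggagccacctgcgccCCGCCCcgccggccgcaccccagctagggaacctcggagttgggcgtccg

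Both Lrrfip1 windows are rich in G and C, at 72.0% and 68.7%, with 36 and 21 CpG pairs. The first has 2 GC boxes and the second 4, and neither has a TATA box, so the contrast between the Nup93 windows is not found here. Of 8 listed genes tested, the relative Lrrfip2 and known partners, 3 were higher in V/SVZ and 3 in CP, with a median of -0.07, near the all-gene shares and median given above. Ctnnb1, which encodes beta-catenin, was 2.44-fold higher in V/SVZ (limma adjusted p = 4.08e-08) and Dvl1, a Wnt signalling adaptor, 1.42-fold higher in CP (limma adjusted p = 9.26e-05). Lrrfip2 itself was higher in CP (-0.28), a call lost under 9 of the alternatives, among them median scaling (-0.19) and leaving out any 1 CP array, and Flii was not called (-0.05). Without scaling Dvl1 alone was called higher in CP. The nearest profiles were those of Jph4 (0.049) and Pcdhac2 (0.054) for the CP-high probe, and of Asah1 (0.073) and Nemp1 (0.074) for the V/SVZ-high probe.

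Araf encodes a Raf kinase, which passes signals from Ras to Mek and Erk. It had 3 tested probes, and the 2 that carry NM_001159645 pointed the same way. Probe A_51_P301259, for NM_009703, read 6129, 6167, 6799 and 6823 intensity units in V/SVZ and 1933, 2043, 2276 and 2216 in CP. Probe A_55_P2049856, for NM_001159645, read 6626, 6824, 7060 and 6538 in V/SVZ and 17444, 16230, 14908 and 15366 in CP. Probe A_55_P2049854, for the same accession, read 634, 699, 710 and 646 in V/SVZ and 2421, 2198, 2034 and 2204 in CP. The NM_009703 probe was therefore high in V/SVZ and both NM_001159645 probes were high in CP, without overlap. The first was 2.65-fold higher in V/SVZ (1.41 ± 0.081 SE, n = 4 per tissue). The others were 2.73-fold (-1.45 ± 0.041 SE) and 3.80-fold (-1.93 ± 0.048 SE) higher in CP.

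In the annotation Araf overlaps Syn1, which encodes the synaptic vesicle protein synapsin I. The 1 tested Syn1 probe was higher in CP (-2.45 ± 0.11 SE, limma adjusted p = 1.53e-07), the direction of the NM_001159645 probes, and its part in the Araf values was not tested. Of 21 other genes of the Ras to Erk cascade tested, 5 were higher in V/SVZ and 13 in CP, with a median of -0.32, beside 38.6% and 43.5% of all genes. Braf, which encodes a related kinase, was slightly higher in CP, at -0.54. Rras, a Ras-related GTPase, was 3.27-fold higher in V/SVZ (limma adjusted p = 3.44e-08), and Sos1, an exchange factor that activates Ras, was 2.09-fold higher in CP (limma adjusted p = 5.57e-07). Without scaling, 8 of the cascade genes were called higher in V/SVZ. The nearest profiles to A_51_P301259 were those of Zfp825 (0.046) and Cacng5 (0.056), and to A_55_P2049856 those of Znrf2 (0.033) and Bcl11a (0.034).

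Ahnak encodes a very large scaffold protein found at the cell membrane, where it is known to bind the S100a10 and Anxa2 complex. Of its 4 probes, 3 were tested. Probe A_52_P263095, for NM_009643, read 1180, 1462, 1539 and 1291 intensity units in V/SVZ and 300, 351, 303 and 321 in CP. Probe A_55_P2153620, for NM_001039959, read 206, 332, 470 and 245 in V/SVZ and 479, 882, 655 and 715 in CP. In the first the tissues were well apart. In the second they almost met, and the lowest CP array was 1.15 times the highest V/SVZ array after scaling. The first was 3.70-fold higher in V/SVZ (1.89 ± 0.094 SE, n = 4 per tissue) and the second 2.59-fold higher in CP (-1.37 ± 0.32 SE), with the widest spread of the 15 tested probes (SD 0.49 in V/SVZ and 0.40 in CP).

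The other two Ahnak probes were dim, and their accessions do not sort them by direction. Probe A_55_P2153621, also for NM_001039959, read 95.0, 109, 83.0 and 107 in V/SVZ and was not well above background on any CP array, where it read 9.28, 8.51, 7.39 and 9.19. Set against the lowest signal well above background, it was at least 2.03-fold higher in V/SVZ, with measured means of -4.68 and -7.99 on the scaled log2 axis, and 1.76-fold higher after normexp, which is under that bound. It is the opposite direction to the second probe of the same accession. Probe A_55_P2162782, for NM_009643, ran from 21.4 to 31.5 in V/SVZ and from 9.61 to 13.5 in CP, did not clear background on any of the 8 arrays, and was not tested.

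Of 6 tested genes in the list of partners and a relative of Ahnak, V/SVZ was higher for 3 and CP for 2, with a median of 0.23. Over all genes the shares were 38.6% and 43.5%, and 6 genes are too few to set against them. The deposited table left 1 called towards V/SVZ and 0 towards CP, but only 136 of the 148 listed genes could be compared there. No gene compared there lost its call, so the lower counts come from genes it lacks. The V/SVZ call of Cacnb2 (0.37), a calcium channel subunit gene, was lost under normexp (-0.074) and with the trend and robust setting of limma. The call was also lost with no filter on dim probes, and on leaving out V/SVZ 1, V/SVZ 2, CP 2 or CP 3. S100a10 was 14.96-fold higher in CP (-3.90 ± 0.35 SE, limma adjusted p = 1.51e-05), whereas Anxa2, which encodes the annexin it binds, was 1.64 higher in V/SVZ on the log2 scale. Prx, a relative of Ahnak known from myelinating Schwann cells, was 4.03-fold higher in V/SVZ (limma adjusted p = 1.97e-09). Ahnak is also known from endothelial and connective tissue cells. Of 10 endothelial and pericyte markers, 3 were higher in V/SVZ, none higher in CP and 7 not called, and their summed level ran from 8.83 to 9.77 times the 75th percentile of the array in V/SVZ and from 7.17 to 8.20 in CP. Of 6 meningeal fibroblast markers, 1 was higher in V/SVZ and 2 in CP, with summed levels of 0.676 to 1.07 and 0.767 to 0.921. The part of such cells in the Ahnak values was not tested. Rai14 (0.087) and Ptpn21 (0.10) were closest in profile to A_52_P263095, and Tdgf1 (0.12) and St6galnac1 (0.14) to A_55_P2153620.

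Aak1 encodes a kinase of the Numb-associated family, which phosphorylates the medium subunit of the AP2 adaptor and so acts in clathrin-mediated endocytosis. All 3 of its probes carry NM_001040106. Probe A_51_P284686 read 2543, 2942, 2923 and 2744 intensity units in V/SVZ and 13248, 11869, 11707 and 12247 in CP. Probe A_55_P2248651 read 4146, 4708, 5473 and 4452 in V/SVZ and 1461, 2059, 1973 and 1897 in CP. Probe A_55_P2066269 read 234, 263, 233 and 273 in V/SVZ and 83.1, 126, 117 and 102 in CP. Array CP 1 was the highest CP array in the first of these and the lowest in the other two, and no array crossed between tissues in any of them. The first was 5.09-fold higher in CP (-2.35 ± 0.040 SE, n = 4 per tissue). The others were 2.21-fold (1.14 ± 0.15 SE) and 2.05-fold (1.04 ± 0.16 SE) higher in V/SVZ, the last 1.60-fold after normexp.

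RefSeq lists 14 transcripts of Aak1 and 2 starts. The windows of these starts overlap and also differ. They are 54.7% and 67.7% G and C, hold 13 and 29 CpG pairs and have 0 and 3 GC boxes. Neither has a TATA box. The noncoding gene 2610306M01Rik overlaps Aak1 in the annotation, and its 1 tested probe was not called (0.11, limma adjusted p = 0.365). Endocytosis genes as a list lay on the side of the CP-high probe. Of 27 tested, 4 were higher in V/SVZ and 22 in CP, with a median of -0.48, beside 38.6% and 43.5% of all genes. Dnm3, a dynamin that cuts vesicles from the membrane, was 17.3-fold higher in CP (limma adjusted p = 7.84e-10, and 13.0-fold after normexp). All 5 listed genes of AP2 subunits were higher in CP, from -0.97 for Ap2b1 to -0.32 for Ap2m1, whose call was lost without scaling (-0.11). Among the related kinases Bmp2k was 2.30-fold higher in V/SVZ (limma adjusted p = 3.03e-06), while Gak (-0.35) and Stk16 (-0.14) were higher in CP, the latter not called with median scaling, normexp or no scaling (0.065). Numb, a fate determinant and a target of the kinase, was 2.24-fold higher in V/SVZ, or 1.46-fold after normexp. Numbl, on the same list, was higher in CP (-0.32), a call lost without scaling (-0.12). In profile A_51_P284686 was closest to Gprin1 (0.044) and Nrip1 (0.047), and A_55_P2248651 to Trim56 (0.062) and Rgl3 (0.079).

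**Figure D3:**
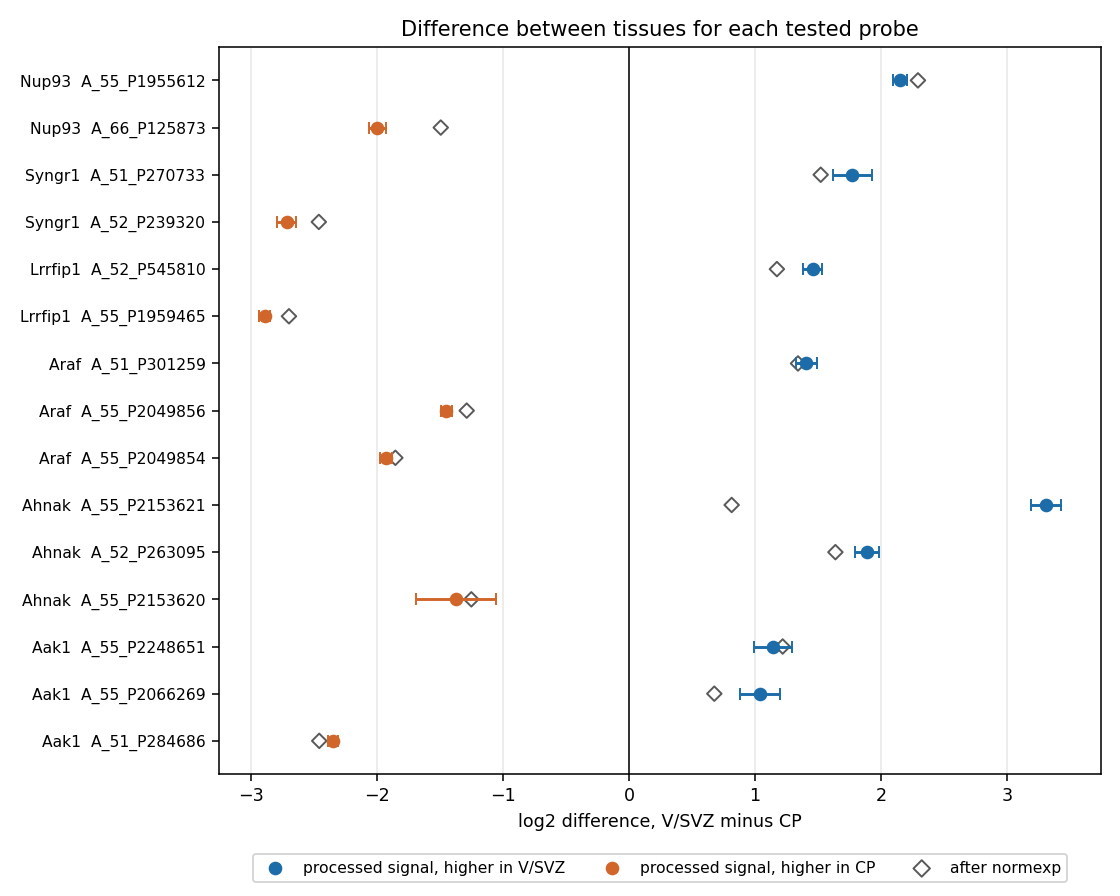
Log2 difference (V/SVZ minus CP) of the 15 tested probes, with bars of 1 standard error over 4 arrays per tissue. Open diamonds give the same difference after normexp background correction. All 15 keep their side of 0, and the dim Ahnak probe A_55_P2153621 moves most, from 3.31 to 0.81.

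Lists of genes that act in the choice of exons and of 3' ends were counted against all genes, of which 82.1% were called, 38.6% towards V/SVZ and 43.5% towards CP. Of 26 splicing regulators tested, 9 were higher in V/SVZ and 15 in CP, with a median of -0.29. Qk, an RNA-binding protein of glia and progenitors, was 28.2-fold higher in V/SVZ (4.82 ± 0.069 SE, limma adjusted p = 5.94e-10), and Khdrbs2 was 9.09-fold higher in CP (limma adjusted p = 2.11e-08). Ptbp1, a repressor of neuronal exons, was higher in V/SVZ (2.48), and Rbfox1 (-2.04), Nova2 (-1.39) and Srrm3 (-1.79), factors known from neurons, were higher in CP. Other factors known from neurons went the other way or differed little. Elavl4 (1.30), Ptbp2 (0.31) and Elavl2 (0.16) were higher in V/SVZ, Rbfox3 (-0.12) was not called, and Srrm4 (-0.22) was higher in CP but not called with median scaling, quantile normalization or no scaling. Of 17 cleavage and polyadenylation factors, which set the ends of transcripts, 11 were higher in V/SVZ and 1 in CP, with a median of 0.21. Nudt21 was 2.10-fold higher in V/SVZ (limma adjusted p = 4.21e-08), and Cstf2t, the 1 higher in CP at -0.12, was not called with median scaling, quantile normalization, normexp or no scaling (0.088). The part of these regulators in the probe differences of the 6 genes was not tested.

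**Figure D4:**
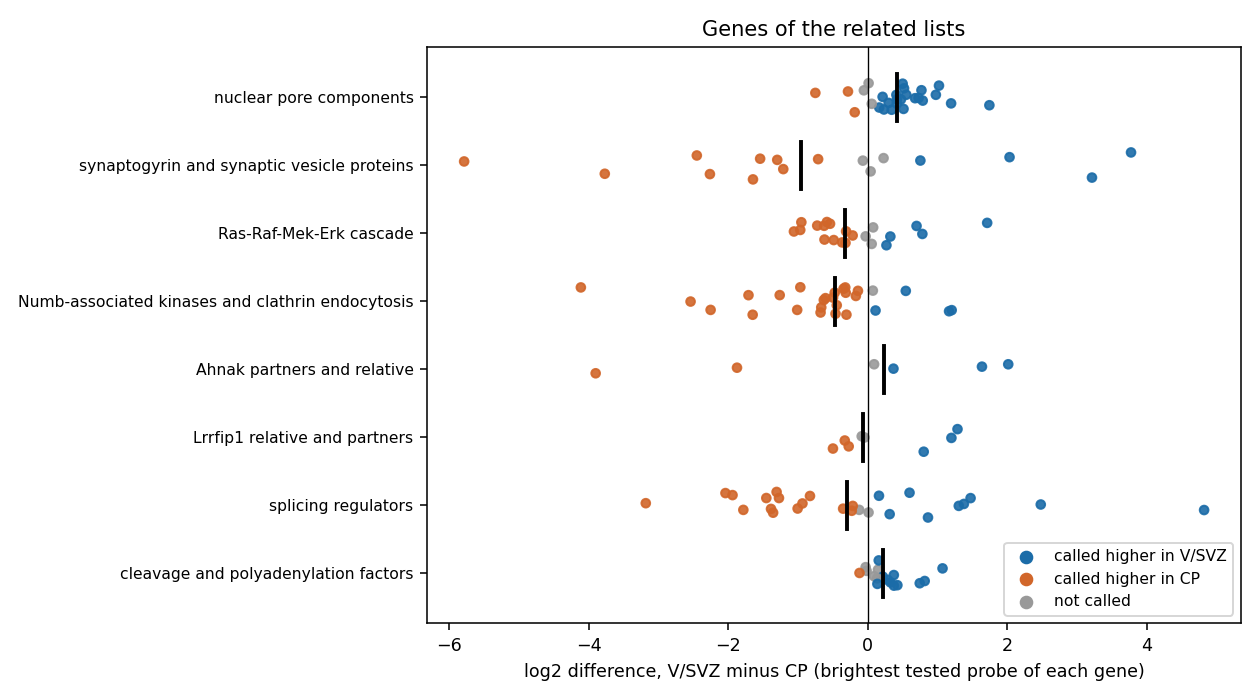
Log2 difference (V/SVZ minus CP) of each tested gene of the 8 related lists, by its brightest tested probe (blue called higher in V/SVZ, orange called higher in CP, grey not called). Black bars are list medians, from -0.96 for the vesicle proteins to 0.42 for the nuclear pore.

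Markers of other cells were called in part. Over all genes 82.1% were called, 38.6% towards V/SVZ and 43.5% towards CP. Of 11 microglia markers, 8 were higher in V/SVZ and 1 in CP, led by P2ry12 (2.39), with summed levels of 15.1 to 19.6 in V/SVZ and 12.86 to 15.01 in CP. The 1 higher in CP, Itgam (-0.81), was the brightest of these markers, with mean log2 levels of 2.63 in V/SVZ and 3.44 in CP. It therefore weighs most in the sums, which understate the difference of the markers higher in V/SVZ. The other tested probe of Itgam gave 0.21. The largest endothelial and pericyte difference was that of Pdgfrb (0.93), and Lum, a fibroblast marker not well above background in V/SVZ, was at least 4.24-fold higher in CP, or 3.65-fold after normexp. All 3 erythroid markers tested were higher in V/SVZ, with Hba-a1 at 0.49. Of 7 interneuron markers, 3 were higher in V/SVZ and 4 in CP, with Gad1 at -0.93, and of 6 oligodendrocyte lineage markers, 2 were higher in each, with Mbp at -1.58. Their part in the values of the 6 genes was not tested.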

How the data were processed

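Per the labels' protocols, total RNA labelled with Cy3 was put on 1-colour Agilent arrays. Feature Extraction 10.7.1.1 made the deposited intensity values, background-subtracted within each array, per the file headers, which name build mm9. The authors also deposited a log2 table of 17163 gene probes, centred per probe, with its filter and scaling unknown and column medians between -0.017 and 0.034. Its columns matched the scanner values of the opposite tissue's array of the same number (correlation 1.0, against -0.98 to -0.97 for the array named), so the table served as an alternative with its direction turned.

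Outlier spots (142 to 258 per array) were left out, spots of a probe were averaged, and log2 signals were set against each array's 75th percentile. The 23860 probes kept were fitted with limma 3.58.1 in R 4.3.3, and p-values were adjusted over all of them by Benjamini-Hochberg. RefSeq accessions (GRCm38.p6) named 26761 probes. For the lists each gene was represented by its brightest tested probe. Standard errors of the 6 genes come from the standard deviations within tissues.

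The members and lists were chosen with earlier results of these data known. Genes named from a list are the called genes with the largest difference each way that were well above background on all 8 arrays, and from a marker list the largest of all. Other list genes, such as the partners of Nup93, were chosen after their values were seen. Neither the fit nor the standard errors printed here use the replicate number. Deviations of same-numbered samples correlated at 0.12 to 0.34, and those of samples with unlike numbers at -0.38 to 0.17. A fit with the replicate number as a block was therefore run as an alternative. On simulated data of 23808 probes, 200 were changed by a log2 difference of 1 either way. The test recovered 83.5% of these, and 2.91% of its calls were false. Both sides were recovered for 72 of 100 opposed pairs, which joined probes at random and not by gene. In the real data 79.7% of probes were called, so these rates need not hold there. The number of arrays limits the precision.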

Additional observations from a re-analysis of the deposited data

Results flagged for a closer look

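Of 30 groups of 4 arrays (15 tested probes in each tissue), 2 held an array far from the other 3, where chance flags about 1 group in 20. For the Lrrfip1 probe A_55_P1959465, array CP 3 was at 2.31 on the scaled log2 axis and the other CP arrays between 2.39 and 2.40, a small distance within a tight group. For the Aak1 probe A_55_P2248651, array CP 1 was at -0.63 and the others between -0.16 and -0.06, and without that array the difference between tissues was 1.01 in place of 1.14.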

How the results depend on the processing

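All 15 tested probes of the 6 genes kept their direction under each alternative that could be run for them, in 247 comparisons. Of these, 30 moved by more than the spread within tissues. Many of the comparisons could not turn a direction. The filters on dim probes, the replicate block and the trend and robust setting leave a probe's difference unchanged. Leaving out 1 array cannot turn a probe whose tissues do not overlap. Median scaling and no scaling shift every difference by 0.088 and 0.208, against a smallest difference of 1.04. The 6 genes kept probes without overlap in both directions under each alternative except the authors' deposited table, where 2 did. That table holds 8 of the 17 probes and opposed pairs of Nup93 and Araf only. All 8 kept their direction there. Normexp moved the dim Ahnak probe A_55_P2153621 from 3.31 to 0.81. With the replicate block 328 genes had probes called in opposite directions against 312 of 3706 without it, with 8480 probes called towards V/SVZ and 10683 towards CP. Leaving out 1 array gave 287 to 324 such genes and median scaling 239. Of listed genes, 60 were called towards V/SVZ and 68 towards CP. These counts ran from 57 to 61 and from 67 to 68 with 1 array left out, and were 73 and 52 without scaling. With the mean of a gene's probes they were 63 and 70. No listed gene was called in the opposite direction under an alternative, but without scaling the differences of Cstf2t (0.088), Itsn1 (0.035), Rae1 (0.019) and Stk16 (0.065) changed sign, and with normexp that of Cacnb2 (-0.074). Of 148 listed genes tested, 119 kept their call or lack of one without scaling and 136 with normexp. Signal over background left 2 of the 17 probes untested and 1 with a bound only in place of a fold.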

Other observations

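Several genes of the related lists also had probes that differed, less than 2-fold in at least 1 direction. They were chosen after their values were seen. Elavl1, which encodes the RNA-binding protein HuR, was -0.83 by its brightest probe and 3.52 by another. Syn2, a synapsin gene, was -0.07 and 1.92. Mras, a Ras-related GTPase gene, was 0.32 by its brightest of 3 probes and -0.73 by the lowest. Other genes kept 1 direction but not 1 size. The 4 probes of Qk ran from 1.64 to 4.82, all higher in V/SVZ, and the 6 of Itsn1, an endocytic scaffold gene, from -2.46 to -0.17; the last, its brightest, was at 0.035 without scaling. Celf6 ran from -2.59 to -1.46 in 2 probes and Dnm1, a neuronal dynamin gene, from -2.54 to -0.87.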
